A study of Mus musculus with 4 samples.

Results

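The SR genes described here encode 10 serine- and arginine-rich splicing factors, Srsf1, Srsf2, Srsf3, Srsf4, Srsf5, Srsf6, Srsf7, Srsf9, Srsf10 and Srsf11. They were chosen by gene symbol, and each symbol occurred once among the 32285 genes of the expression matrix. SR proteins bind short sequences in exons through RNA recognition motifs and recruit the splicing machinery through domains rich in arginine and serine. They gather in nuclear speckles, the bodies that SRRM2 and SON help to build, and kinases of the Clk and Srpk families control their release. Most SR genes limit their own output through poison exons, whose inclusion directs the transcript to nonsense-mediated decay.

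Single-cell RNA sequencing was used to ask how a reduced dose of Srrm2 alters the state of mouse embryonic stem cells (mESC). The WT samples are of the male E14tg2a.4 line, and the Srrm2 hKO samples are of the heterozygous gene-trap line CG0630, a single line with a truncated Srrm2 allele that was derived from E14tg2a.4. There were 2 WT and 2 Srrm2 hKO samples, all grown in serum-free ESGRO medium with the self-renewal cytokine LIF for a time that the labels give as 24 h or 72 h and that the methods give as a single other length. Droplet libraries of the 3′ ends of polyadenylated transcripts were counted as unique molecular identifiers (UMIs). All cells are held in 1 matrix, in which the barcodes carry library numbers from 1 to 4 that no label ties to a sample. No library was therefore assigned to a genotype, the genotypes were not compared, and levels are given by library number.

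The cell filter that the methods of the study describe was applied anew, and left 8118, 8514, 7893 and 7464 cells with 166839268 to 200180473 UMIs in libraries 1 to 4. The cells kept are somewhat more than the study states, so they are not exactly its set. Levels are UMIs of a gene per 1000000 UMIs of these cells (CPM, counts per 1000000), with exact 95% Poisson intervals that cover counting error only and not the spread between cultures. Pou5f1 was at 663 to 847 CPM and Sox2 at 300.0 to 419 CPM, whereas markers of fibroblasts summed to 2.24 to 11.6 CPM, those of primitive endoderm to 1.45 to 4.80 CPM and those of trophectoderm to 27.8 to 49.7 CPM. The libraries stood apart in other respects. In libraries 1 to 4, the 8 formative pluripotency genes summed to 227, 771, 392 and 1121 CPM, the 10 naive genes to 1930, 1575, 1402 and 931 CPM and the 8 keratin and contractile genes to 104, 107, 1051 and 397 CPM. The median mitochondrial share of UMIs was 5.40%, 4.10%, 4.51% and 3.51%, and the nuclear RNA Malat1 was at 4088 to 5157 CPM. A barcode sequence was found in more than 1 library for 105 barcodes.

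The level of Srrm2 itself in libraries 1 to 4 was 387, 533, 238 and 356 CPM. The highest and lowest libraries thus differed 2.24-fold, with a 95% interval of 2.22 to 2.27. The 10 SR genes together were at 2466, 3062, 2594 and 2961 CPM in libraries 1 to 4, or 0.247% to 0.306% of all UMIs. Their sum varied less than Srrm2, with a level 1.24 times as high in library 2 as in library 1. A sum evens out its members, and the widest single member, Srsf9, differed 1.87-fold. In libraries 1 to 4 the order of the SR sum was 2, 4, 3, 1 from high to low, and that of Srrm2 was 2, 1, 4, 3.

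**Figure D1:**
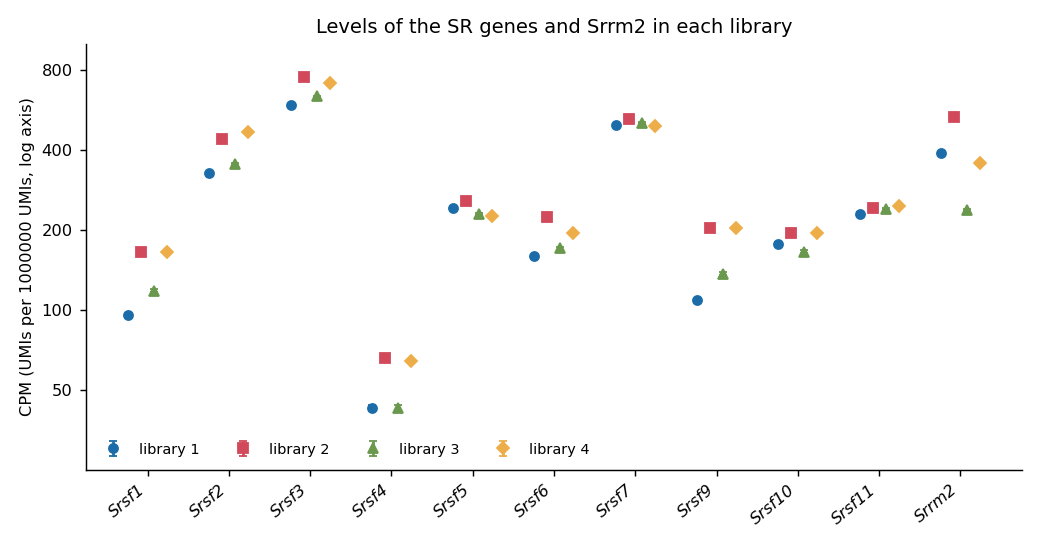
Level of each SR gene and of Srrm2 in CPM (log axis) in libraries 1 to 4, with exact 95% Poisson intervals that are mostly smaller than the symbols. Srsf1, Srsf4 and Srsf9 spread widely between libraries, from 42.7 to 66.0 for Srsf4, whereas Srsf7 stayed between 489.7 and 521.

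The members differed in their spread between libraries. Srsf1, Srsf4 and Srsf9 differed at least 1.5-fold between the highest and lowest library, so 3 of 10 members did so. Among the 11099 genes with at least 200 counts in every library, 41.0% did. The median of this fold was 1.34 over the members and 1.42 over all genes tested. At a minimum of 50 counts, 48.0% of 13412 genes were at least 1.5-fold apart. Counting error widens the folds of sparse genes, and the background was not matched for level. The counts of these UMIs do not tell isoforms apart, and transcripts with and without a poison exon are summed in each level.

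Srsf9, a factor with a short arginine- and serine-rich tail, had the widest spread. Its levels in libraries 1 to 4 were 109 (95% interval 107 to 110), 203 (201 to 205), 136 (135 to 138) and 202 CPM (200.2 to 204). Libraries 2 and 4 did not differ beyond counting error, and the 1.87-fold difference between libraries 2 and 1 (1.84 to 1.90) was larger than that of 79.8% of the genes tested. Srsf1, the founding member of the family, which promotes recognition of 5′ splice sites, was at 95.7, 164, 118 and 164 CPM in libraries 1 to 4. Its fold between libraries 4 and 1 was 1.72 (1.69 to 1.75), and libraries 2 and 4 again did not differ beyond counting error. Srsf4, which has a long arginine- and serine-rich domain, was at 42.7, 66.0, 42.7 and 64.1 CPM. Here it was libraries 1 and 3 that could not be told apart, and the fold was 1.54 (1.5 to 1.59). These calls leaned on single libraries. For any gene, such a fold can only stay or fall when a library is left out. No share of all genes is given for the sets with a library left out. Without library 1 only Srsf4 was at least 1.5-fold apart, and the folds were 1.39 for Srsf1 and 1.49 for Srsf9. Without library 2 the call of Srsf4 was lost, at just under 1.5-fold, and 2 members were left.

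Other members varied little between libraries in CPM, and size factors changed part of this order, as given below. Srsf7, which also serves as an adaptor for mRNA export, was at 495, 521, 505 and 489.7 CPM over libraries 1 to 4. The difference of 1.06-fold (1.05 to 1.07) was smaller than those of all but 1.46% of the genes tested. Srsf11, known for its part in the splicing of neuronal microexons, was at 229.9, 241, 239 and 245 CPM, which is a difference of 1.07-fold (1.05 to 1.08). Its level in library 2 did not differ beyond counting error from those in libraries 3 and 4. Srsf5, a shuttling SR protein, had levels of 240.5, 256, 229.6 and 225 CPM. Srsf10, which represses splicing when it is dephosphorylated, was at 177, 194, 165 and 194 CPM, and libraries 2 and 4 did not differ beyond counting error. Folds for Srsf5 and Srsf10 were 1.14 and 1.17. The folds of the remaining members lay between these and those of Srsf1, Srsf4 and Srsf9. Srsf3, another export adaptor, was at 590.2, 753, 635 and 715 CPM (1.28-fold). Srsf6, a regulator of alternative exons, was at 159, 224, 170.2 and 195 CPM (1.41-fold). Srsf2, which marks speckles, was at 327, 440.2, 353 and 466 CPM (1.43-fold).

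**Figure D2:**
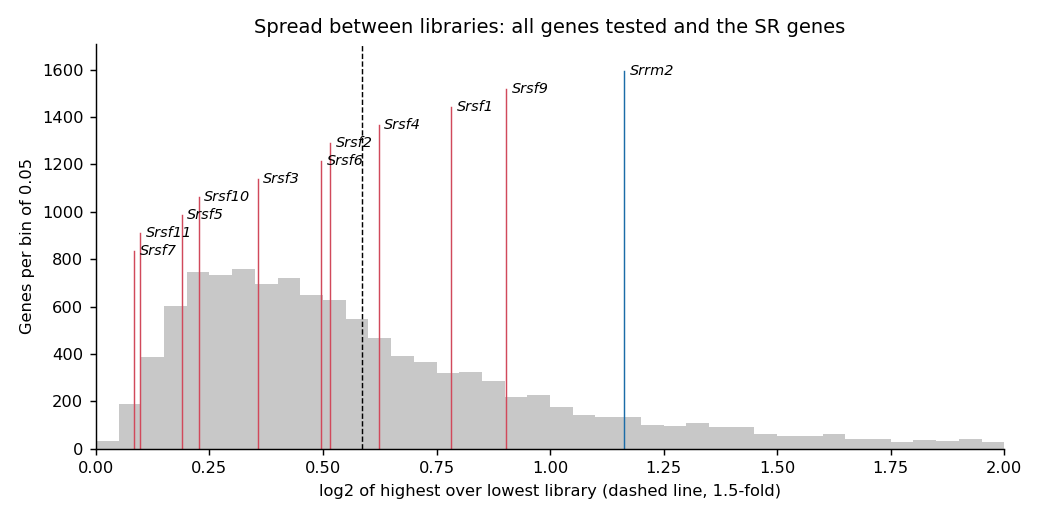
Number of genes (grey bars, bins of 0.05) by the log2 of the level in the highest library over that in the lowest, for 11099 genes up to a log2 of 2, with the SR genes as red lines and Srrm2 in blue. Srsf4, Srsf1 and Srsf9 lie beyond the dashed line at 1.5-fold, and Srsf7 and Srsf11 near the left edge.

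Library 1 held the lowest level of 7 of the 10 members, compared with 42.7% of all genes tested. The highest level lay in library 2 for 7 members (25.6% of all genes) and in library 4 for 3 members (31.9%). The order rested in part on how the libraries were scaled. Without mitochondrial and ribosomal protein genes in the totals, library 2 was highest for 4 members and library 4 for 5, so their order turned, and library 1 was lowest for 5. With size factors (the median ratio of a library's counts to the mean of all libraries) in place of total UMIs, library 2 was highest for 5 members and library 4 for 1, library 1 was lowest for 2 members and highest for Srsf5, Srsf7, Srsf10 and Srsf11, and the lowest SR sum moved to library 3. In CPM the median gene was 0.12 higher on the log2 scale in library 2 than in library 1, and 0.13 higher in library 4. By size factors Srsf9 was still lowest in library 1 and 1.67-fold higher in library 2, and Srsf1 was 1.53-fold higher in library 2. Srsf4 stayed just past the limit, at 1.5-fold between libraries 2 and 3. Srsf7 was then 1.17-fold apart and Srsf5 1.24-fold, no less than Srsf3 at 1.16-fold and Srsf2 at 1.24-fold. Srsf11 stayed narrow, at 1.09-fold.

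Pairs of libraries were compared in the same way, each with the background of 11099 genes. Between libraries 1 and 2, 3 of 10 members differed at least 1.5-fold (Srsf1, Srsf4 and Srsf9), as did 22.9% of all genes. Between libraries 1 and 4, 2 members did so and 30.8% of all genes. For libraries 2 and 3 it was 1 member, Srsf4, and 18.5%. No member passed between libraries 1 and 3 (10.4% of genes), between libraries 2 and 4 (8.67%) or between libraries 3 and 4 (18.6%). Some members missed the limit narrowly. For library 4 over library 3, Srsf4 was at 1.5 (1.46 to 1.54) and Srsf9 at 1.48 (1.46 to 1.51). For library 4 over library 1, Srsf4 was also at 1.5 (1.46 to 1.54). The members' ratios of library 4 to library 2 ran from 0.871 to 1.06, the narrowest span of the 6 pairs, and those of library 2 to library 1 from 1.05 to 1.87.

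The mitochondrial share, Malat1 and the formative genes also differed between the libraries, and their part in the spread of the SR genes was not tested. Levels were also read in narrower sets of cells. In cells with 3% to 5% mitochondrial UMIs, a window chosen after the data were seen, the SR sum was at 2499, 3086, 2629 and 2965 CPM and the Srsf9 fold was 1.73. In cells without any formative UMI among 5000 drawn, Srsf9 was at 102, 198, 123 and 176 CPM in libraries 1 to 4. Srsf1 was at 89.4, 145, 104 and 143 CPM in the same cells. The folds between the highest and lowest library were then 1.94 for Srsf9 and 1.62 for Srsf1, compared with 1.87 and 1.72 over all cells. At 4 to 6 formative UMIs per cell they were 1.58 and 1.52. At 7 to 10, where library 1 held 66 cells, the Srsf9 fold was 1.42, below the limit of 1.5, and the Srsf1 fold was 1.72. The Srsf4 fold was 1.5 at 0, 1.45 at 1, 1.41 at 2 to 3, 1.36 at 4 to 6 and 2.16 at 7 to 10 formative UMIs, the last with 11 Srsf4 UMIs in library 1. The members at least 1.5-fold apart numbered 3 at 0 formative UMIs, and 2 (Srsf1 and Srsf9) at 1, at 2 to 3 and at 4 to 6. At 7 to 10 there were 3 (Srsf1, Srsf4 and Srsf6). No share of all genes is given for these sets of cells, so the counts have no background. Counting error was wide at 7 to 10. There library 1 held 36 Srsf1 UMIs, 48 Srsf6 UMIs (107.4 to 193.2 CPM) and 50 Srsf9 UMIs (112.6 to 200.1 CPM). Within the libraries, Srsf1 was at 115, 176, 143 and 164 CPM in cells with 4 to 6 formative UMIs, compared with the 89.4, 145, 104 and 143 CPM in cells with 0. Srsf9 was at 131, 193, 157 and 206 CPM in cells with 4 to 6, so in library 2 it was not higher than the 198 CPM in cells with 0.

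**Figure D3:**
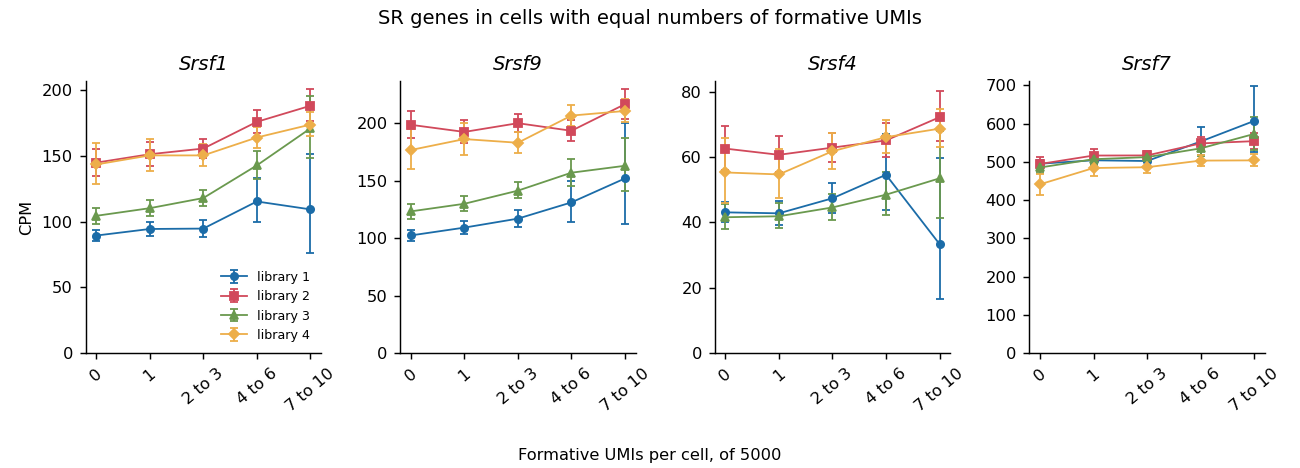
Level of Srsf1, Srsf9, Srsf4 and Srsf7 in CPM (formative genes left out of the total) in cells grouped by their number of formative UMIs, for libraries 1 to 4 with exact 95% Poisson intervals. At 0 formative UMIs, Srsf9 lies between 102 and 198 in the 4 libraries, and Srsf7 between 441 and 495; the rightmost group of library 1 holds 66 cells.

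The upstream sequences of the members with the widest and the narrowest spread in CPM are shown so that they can be set side by side. They are the 250 bases before the gene start in the RefSeq table for GRCm38.p6, read 5′ to 3′ on the strand of the gene. All 10 members matched this table. Capitals mark the motifs searched on both strands, namely the GC box (GGGCGG or CCGCCC), the CCAAT box (CCAAT or ATTGG), the TATA box (TATAAA or TTTATA) and the core of the cyclic AMP response element (TGACG or CGTCA).
Srsf9, chr5:115326927-115327176, plus strand: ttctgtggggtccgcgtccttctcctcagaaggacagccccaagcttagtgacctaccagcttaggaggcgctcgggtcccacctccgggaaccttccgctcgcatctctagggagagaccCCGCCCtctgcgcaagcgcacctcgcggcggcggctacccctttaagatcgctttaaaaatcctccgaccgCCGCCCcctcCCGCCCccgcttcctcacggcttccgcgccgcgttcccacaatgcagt
Srsf1, chr11:88047123-88047372, plus strand: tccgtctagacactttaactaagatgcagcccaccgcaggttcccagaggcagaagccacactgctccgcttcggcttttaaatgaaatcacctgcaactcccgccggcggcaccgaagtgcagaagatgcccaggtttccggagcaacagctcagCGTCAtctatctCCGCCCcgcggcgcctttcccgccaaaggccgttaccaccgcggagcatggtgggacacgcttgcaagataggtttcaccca
Srsf7, chr17:80207306-80207555, minus strand: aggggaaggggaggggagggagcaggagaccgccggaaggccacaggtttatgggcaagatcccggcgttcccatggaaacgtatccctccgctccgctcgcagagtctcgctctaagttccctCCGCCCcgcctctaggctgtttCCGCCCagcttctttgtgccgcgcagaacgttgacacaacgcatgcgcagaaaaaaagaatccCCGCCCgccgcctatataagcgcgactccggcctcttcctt
Srsf11, chr3:158036607-158036856, minus strand: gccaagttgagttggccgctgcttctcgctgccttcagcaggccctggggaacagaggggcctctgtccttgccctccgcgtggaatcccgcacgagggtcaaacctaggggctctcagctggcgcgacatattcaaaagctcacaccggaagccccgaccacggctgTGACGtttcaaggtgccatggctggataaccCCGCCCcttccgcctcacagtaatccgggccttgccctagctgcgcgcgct

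A GC box was found in 9 of the 10 promoters, compared with 32.7% of all 32851 promoters in the table. The core of the cyclic AMP response element was found in 6 members and 17.8% of all promoters, the CCAAT box in 3 members and 33.8%, and the TATA box in 2 members and 12.4%. The shares of all promoters were not limited to expressed genes and not matched for GC content, which was 56.8% to 77.2% in the members. Copies that overlap each other were counted each. Only these exact letters were searched, so near forms, such as tatataag close to the end of the Srsf7 sequence, were not counted. Srsf9 and Srsf7, at the opposite ends of the range between libraries in CPM, each held 3 GC boxes and no other motif of those searched. Srsf1 and Srsf11 each held 1 GC box and 1 core of the response element. Srsf4 held 3 GC boxes and no such core, and Srsf5 held 3 GC boxes and 1 core. Srsf10 held 3 GC boxes, 1 core and 1 CCAAT box. Its RefSeq start lay 324 bases from its start in the GENCODE annotation, compared with 0 to 33 for the other members. The 250 bases of Srsf10 thus lie inside the gene as GENCODE places it. GC content of the 250 bases was 58.8% for Srsf1, 65.2% for Srsf9, 61.6% for Srsf7 and 63.6% for Srsf11, with a median of 52.4% over all promoters.

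The transcript models of the members shared another feature. In the GENCODE M21 annotation of GRCm38, 9 of the 10 members had at least 1 transcript marked for nonsense-mediated decay (20.8% of 21951 protein-coding genes) and 8 had a transcript with a retained intron (41.5%). These shares of genes were not matched for the number of transcripts annotated, which was 4 to 19 in the members. The member without a transcript marked for decay was Srsf10, on chromosome 4 from 135855747 to 135869908. Srsf11, on the minus strand of chromosome 3 from 158010473 to 158036639, had 11 retained-intron models among 19 transcripts. Srsf1 lies on chromosome 11 (88047373 to 88053755, plus strand), Srsf9 on chromosome 5 (115327177 to 115333080, plus strand) and Srsf4 on chromosome 4 (131873617 to 131901706, plus strand). Srsf1, Srsf2 and Srsf4 overlap genes on the other strand (Gm11508; Mettl23 and Mfsd11; Gm12992), and how reads in such overlaps were assigned is not given in the sources used here.

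The share of cells with a UMI differed widely between members. After each cell was thinned to 5000 UMIs, which left out 0 cells, a Srsf3 UMI was found in 93.5% to 96.8% of cells and a Srsf7 UMI in 89.7% to 92.3%. A Srsf4 UMI was found in 19.7% (exact 95% binomial interval 18.9 to 20.6), 27.5% (26.5 to 28.4), 19.3% (18.4 to 20.2) and 27.9% (26.9 to 28.9) of cells of libraries 1 to 4. Counts of the same mean that followed a Poisson distribution would give 19.9%, 27.7%, 19.7% and 27.7%, so the shares of Srsf4 were within 0.4 percentage points of those of Poisson counts. The other members had lower shares than Poisson counts in every library, with the largest gap of a member between 0.9 points (Srsf6) and 2.4 points (Srsf7, at 89.7% against 92.1% in library 3). Without thinning, Srsf4 was found in 54.9% to 74.5% of cells. The variance of the counts divided by their mean, which is 1 for Poisson counts, lay between 0.987 and 1.22 over the members and libraries. By comparison, it was 1.67 to 2.82 for Dnmt3b, and the median over all genes was 1.03 or 1.04. The member with the highest ratio in each library was Srsf3, at 1.15 to 1.22, above 88% to 92% of genes. Srsf3 also had the highest mean of the members, at 3.0 to 3.81 UMIs per cell, and the genes were not matched for level. The median member was at 1.04 to 1.06, and the lowest member lay above 3% to 43% of genes. Thinning brings such ratios closer to 1 for every gene. Free RNA in the droplets was not measured, since no cell type without these genes was available for it.

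The relation of the SR genes to Srrm2 was read within each library, so that it did not rest on differences between cultures. Across cells, Pearson's r with Srrm2 was at most 0.056 (Srsf1 in library 2) and at least -0.020 (Srsf9 in library 2). The median over the members was 0.014, 0.023, 0.006 and 0.015 in libraries 1 to 4, and the median over 4689 genes with a mean of at least 0.1 UMI per cell was 0.004 to 0.006. In the median over libraries, 8 of 10 members lay above the median gene. These values depended on depth, and the median over members and libraries (0.015) was 0.032 at 10000 UMIs per cell, with 9 of 10 members above the median gene. With all UMIs on a log scale it was 0.060, with 10 of 10 above a median gene of 0.021. Srsf1 had the highest r in libraries 2 and 3, at 0.056 and 0.037, above 97.8% and 96.2% of the genes. In library 4 its r was 0.015, above 67.5% of them. The values for Srsf7 were 0.004, 0.012, 0.004 and 0.005, near the median gene. Malat1 reached 0.096, 0.145, 0.067 and 0.100. The cells of a library share its preparation and depth, and in counts this sparse such correlations are a description and no finding. The SR sum had an r with Srrm2 of 0.042, 0.062, 0.018 and 0.047.

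**Figure D4:**
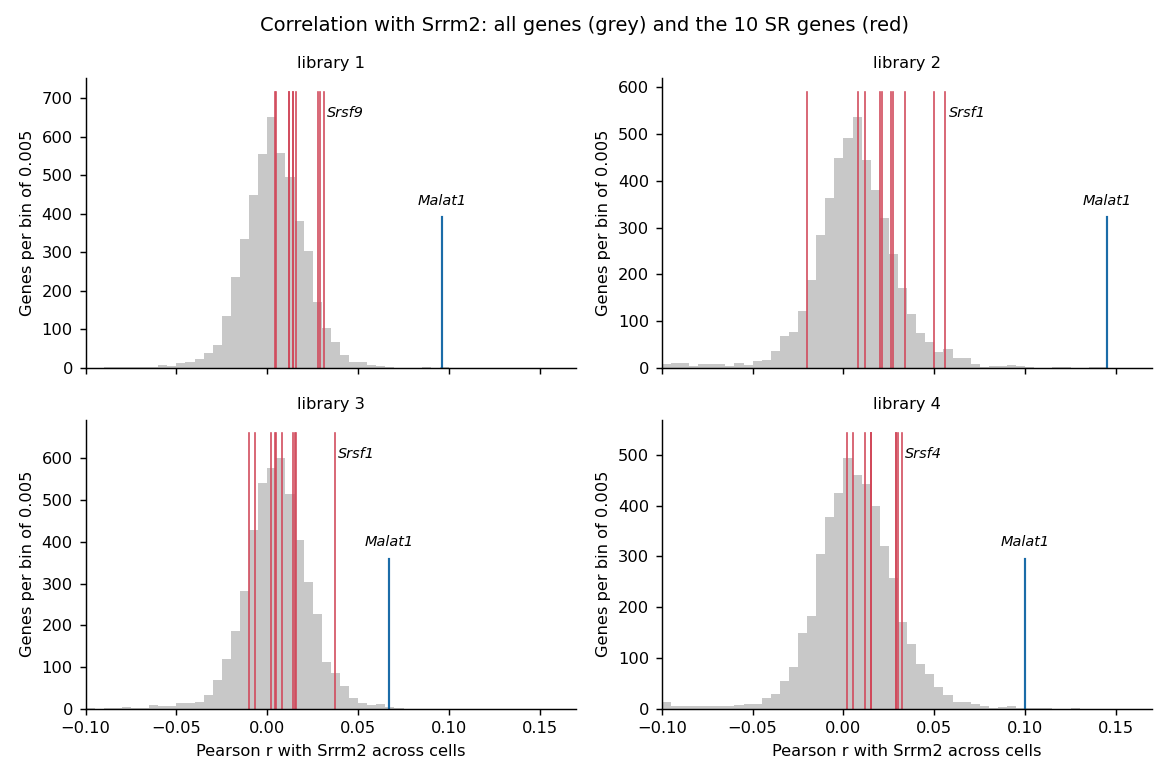
Distribution over genes (grey bars, bins of 0.005) of Pearson's r with Srrm2 across cells thinned to 5000 UMIs, 1 panel per library, with the SR genes as red lines, the highest of them named, and Malat1 in blue. The SR genes lie between -0.020 and 0.056, within the spread of all genes, and Malat1 lies between 0.067 and 0.145. Genes beyond -0.10 or 0.15 are not drawn.

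Cells were then sorted by their Srrm2 UMIs, and cells at or above the upper quartile of each library were compared with cells at or below the lower quartile. Ties made the low class larger than 25% of cells, with 3600, 2425, 2544 and 3657 low and 2412, 2327, 2627 and 1935 high cells in libraries 1 to 4. Srrm2-high cells had at least 3, 4, 2 and 3 UMIs of 5000 in libraries 1 to 4, and Srrm2-low cells at most 1, 1, 0 and 1. Srsf1 was at 101 CPM in high and 89.0 CPM in low cells of library 1, and at 181 against 152 CPM in library 2. Its log2 ratios were 0.19, 0.25, 0.10 and 0.07 in libraries 1 to 4, and the last had an interval of -0.02 to 0.16. Srsf11 had 0.02, 0.17, 0.05 and 0.10, and Srsf9 had 0.11, -0.07, -0.03 and 0.01. A gene was counted when it differed at least 1.2-fold and with the same sign in all 4 libraries. By this rule 0 of 10 members were counted, compared with 0.0815% of 7365 genes. At 1.1-fold, a limit added after the data were seen, the count was 0 of 10 and 2.19%. Members higher by any amount in all libraries numbered 6 of 10 (26.8% of genes), namely Srsf1, Srsf2, Srsf4, Srsf6, Srsf10 and Srsf11, and 0 of 10 were lower in all (7.83% of genes). Counting error turns the sign of sparse genes more often. Here and below, such shares of all genes were not matched for level, so they are no like-for-like background for the members. The SR sum was higher by 0.05, 0.07, 0.01 and 0.04 on the log2 scale, and the median gene by 0.03, 0.05, 0.03 and 0.04. Malat1 was also higher in Srrm2-high cells, at 4530.3 against 3902 CPM in library 1 and 4838 against 3809 CPM in library 2, and its part in the result was not tested.

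Cells high in 14 S-phase genes, such as Mcm and other replication genes, were compared with cells low in them. The SR sum was at 2588, 3248, 2753 and 3172 CPM in the S-high cells of libraries 1 to 4, and at 2422, 2933, 2419 and 2839 CPM in the S-low cells. On the log2 scale these differences were 0.10, 0.15, 0.19 and 0.16, and the median gene differed by 0.02 to 0.04. Srsf10 was at 197 against 169 CPM in library 1, with log2 ratios of 0.22, 0.15, 0.23 and 0.25 in the 4 libraries. For Srsf2 the log2 ratios were 0.17, 0.21, 0.31 and 0.21. These 2 members were at least 1.1-fold higher in every library, as 6.44% of 6946 genes were in either direction, but 0 of 10 reached 1.2-fold (1.57%). All members but Srsf5 were higher by some amount in every library, 9 of 10 compared with 26.1% of genes, and 0 of 10 were lower in all (11.7%). For Srsf1, Srsf2, Srsf3, Srsf7 and Srsf10 the interval lay above 0 in each library, 5 of 10 compared with 4.88% of genes, a rule that genes with more counts pass at smaller ratios. The smallest ratios were those of Srsf5 in library 1, at -0.01 (-0.09 to 0.06), and Srsf9 in library 3, at 0.01. S-high cells had fewer UMIs before thinning, with medians of 17226 against 19464 in library 1 and 19844 against 22965 in library 4. They also had less Malat1, at 3755 against 4545 CPM in library 1 and 4419 against 6510 CPM in library 4. Srrm2 was higher in S-high cells by 0.05, 0.08, 0.08 and 0.12 on the log2 scale, with an interval that included 0 in library 1. The part of depth, Malat1 and Srrm2 in these ratios was not tested.

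Cells high in 14 G2/M genes were compared with cells low in them in the same way. At 1.2-fold 0 of 10 members were counted (4.36% of 6773 genes), and likewise 0 of 10 at 1.1-fold (12.9%). The SR sum differed by 0.01, -0.02, 0.13 and 0.01 on the log2 scale. Members higher by any amount in all libraries numbered 3 of 10 (29.8% of genes), namely Srsf1, Srsf5 and Srsf6. No member was lower in all, 0 of 10 compared with 15.5%. The log2 ratios of Srsf5 were 0.09, 0.14, 0.18 and 0.28, and it was the only 1 of 10 members with an interval above 0 in each library (6.94% of genes). It was at 248 against 205 CPM in G2/M-high and G2/M-low cells of library 4. Srsf1 had 0.06, 0.08, 0.27 and 0.08, and Srsf6 had 0.12, 0.05, 0.23 and 0.03. The libraries differed in sign for other members. In library 3 the intervals of Srsf1, Srsf2, Srsf3, Srsf5, Srsf6 and Srsf7 lay above 0, whereas those of Srsf2 in libraries 2 (-0.14 to -0.03) and 4 (-0.18 to -0.06), Srsf3 in library 1 (-0.12 to -0.02) and Srsf7 in library 2 (-0.13 to -0.03) lay below 0. G2/M-high cells had more UMIs before thinning, with medians of 21917 against 15710 in library 1 and 25337 against 18705 in library 4. They also had more Malat1, at 5086 against 3551 CPM and at 6903 against 4583 CPM in the same libraries. The log2 ratios of Srrm2 were 0.10, 0.13, 0.20 and 0.20, with each interval above 0, and the part of these values was not tested. Whether members differed between the S and the G2/M contrast was not tested.

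The formative genes rise as cells leave the naive state, which resembles the epiblast before implantation. The paper describes cells with naive and formative features together, so these genes alone do not show exit from the naive state. Formative-high cells had at least 2, 5, 3 and 8 formative UMIs after thinning in libraries 1 to 4. Formative-low cells had at most 0, 1, 0 and 2. A cell with 2 was thus high in library 1 but low in library 4. The ratios compare cells within a library, and the classes are not the same cell state across libraries. Srsf1 was at 98.4, 187, 138 and 182 CPM in the formative-high cells of libraries 1 to 4, and at 89.4, 148, 104 and 148 CPM in the low cells. Its log2 ratios were 0.14, 0.33, 0.41 and 0.30. Srsf9 had log2 ratios of 0.24, 0.18, 0.31 and 0.24, and Srsf4 had 0.16, 0.21, 0.18 and 0.31. Srsf1 and Srsf9 had intervals above 0 in each library, 2 of 10 compared with 9.35% of genes, whereas those of Srsf4 included 0 in library 1 (-0.01 to 0.32) and library 3 (-0.01 to 0.37). These 3 members were at least 1.1-fold higher in formative-high cells of every library. Of 6964 genes, 16.3% passed this limit in either direction. At 1.2-fold 0 of 10 members were counted (4.80%), and 1 member, Srsf1, when library 1 was left out. No share of all genes is given for the latter, where 1 library fewer had to pass. Members higher by any amount in all libraries numbered 8 of 10 (36.6% of genes), and 0 of 10 were lower in all (16.4%). Srsf5 stayed at -0.06 to 0.06 and Srsf6 at -0.02 to 0.11. The SR sum was 0.03, 0.15, 0.15 and 0.19 higher on the log2 scale, and the median gene 0.05 to 0.08. Formative-high cells had slightly lower mitochondrial shares, with medians of 3.41% against 3.6% in library 4. They had more UMIs before thinning in every library, with medians of 20818 against 18656 in library 3, and more Malat1, at 5775 against 5178 CPM in library 4. Srrm2 was higher in them too, by 0.05, 0.19, 0.18 and 0.30 on the log2 scale in libraries 1 to 4, with an interval that reached 0 in library 1. The part of these in the ratios was not tested.

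The naive genes include Nanog, Klf4 and Esrrb. Naive-high cells had at least 13, 11, 11 and 8 UMIs of these genes after thinning in libraries 1 to 4. Naive-low cells had at most 7, 5, 4 and 1, so these classes too are relative to each library. Srsf9 was lower in naive-high cells. In high against low cells it was at 193 against 224 CPM in library 2, and at 117 against 165 CPM in library 3. Its log2 ratios of -0.26, -0.21, -0.50 and -0.24 all had intervals below 0, as for 9.72% of genes. It was the only 1 of 10 members at least 1.1-fold apart in every library (19.7% of 6862 genes). At 1.2-fold the count was 0 of 10 (8.66%). Members lower by any amount in all libraries were Srsf1, Srsf9 and Srsf11, 3 of 10 compared with 31.8% of genes. Srsf5 and Srsf6 were higher in all, 2 of 10 compared with 19.3%, and Srsf5 had ratios of 0.25, 0.01, 0.22 and 0.05. Naive-high cells of library 3, where the ratio of Srsf9 was -0.50, had a median mitochondrial share of 4.67% against 3.88%, a median of 18268 against 21084 UMIs and Malat1 at 4551 against 5258 CPM. Srrm2 had log2 ratios of -0.05, -0.16, -0.12 and -0.19 between naive-high and naive-low cells, with an interval that included 0 in library 1. The part of these in the result was not tested. The SR sum changed sign between libraries, at 0.03 and 0.02 in libraries 1 and 3 and -0.09 and -0.11 in libraries 2 and 4.

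In cells high in the keratin and contractile genes, 0 of 10 members were counted at 1.2-fold (3.91% of 7982 genes) and 0 of 10 at 1.1-fold (11.9%). Srsf9 was higher in each library, with log2 ratios of 0.13, 0.12, 0.20 and 0.16, whereas the SR sum lay between -0.05 and 0.04. Srsf1, Srsf9 and Srsf11 were higher by any amount in all libraries, 3 of 10 compared with 28.7% of genes, and Srsf4, Srsf5 and Srsf6 were lower, 3 of 10 compared with 17.6%. In libraries 1 to 3 the classes were cells with and without a UMI of these genes. Cells high in them had lower mitochondrial shares, more UMIs and more Malat1 in every library. In library 3 these were 4.18% against 4.7%, a median of 20671 against 18759 UMIs, and 4717 against 4107 CPM. Srrm2 differed by -0.01, 0.02, 0.08 and 0.02 on the log2 scale, and the part of these values in the result was not tested.

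**Figure D5:**
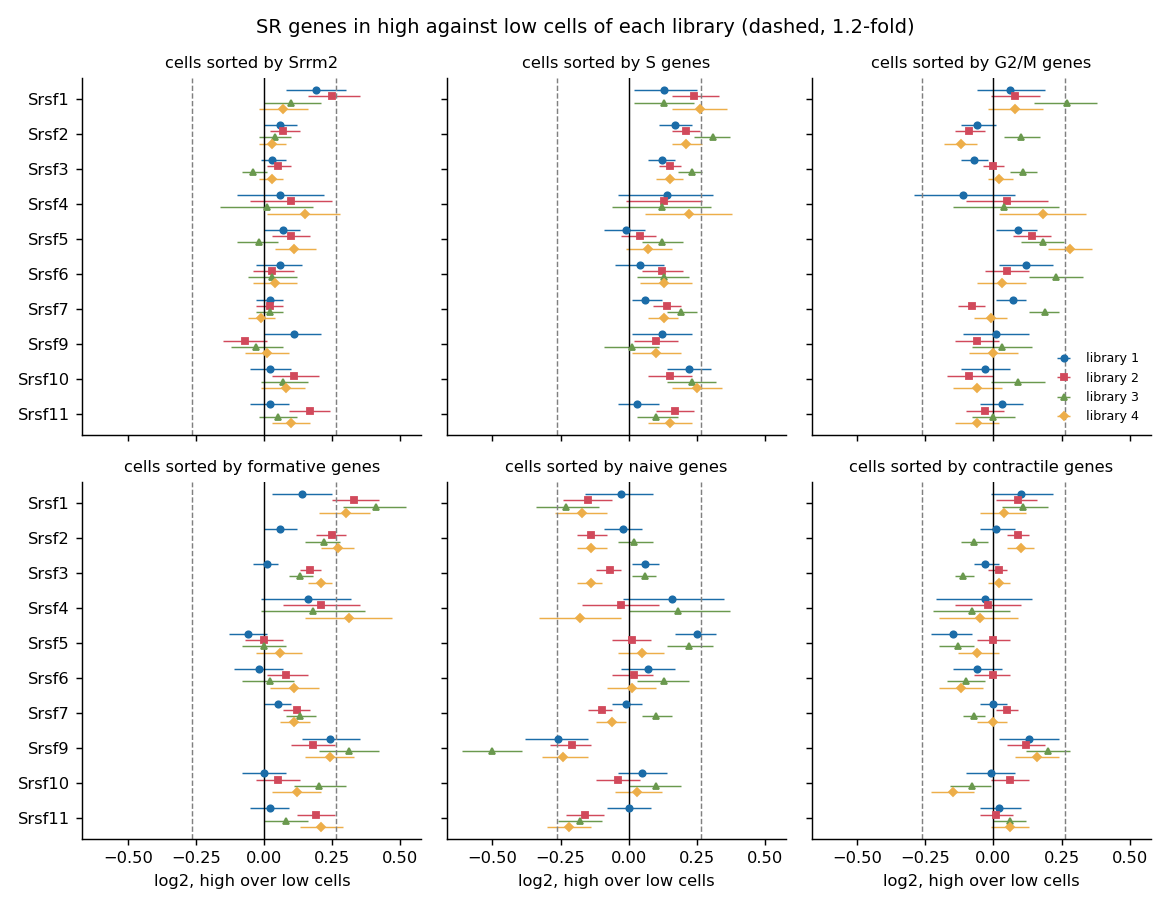
Log2 ratio of each SR gene between cells high and cells low in Srrm2 or in a marker list, 1 panel per contrast, with points for libraries 1 to 4 and 95% intervals (counting error only). High and low were set within each library. The members lie mostly right of 0 in the S panel, and Srsf9 lies left of 0 in the naive panel, down to -0.50 in library 3; dashed lines mark 1.2-fold in either direction.

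The SR genes moved together only weakly from cell to cell. Of the 45 pairs of members, 27 had a positive r in all 4 libraries, and the median over pairs was 0.015. Of the 10995705 pairs among 4690 genes, 14.1% had a positive r in all, with a median of 0.001, but these genes were sparser, with a median of 0.308 UMIs per cell against 1.07 for the members. The highest values were those of Srsf3 with Srsf7 (0.043, 0.096, 0.095 and 0.068 in libraries 1 to 4), Srsf2 with Srsf3 (0.053 to 0.088) and Srsf2 with Srsf7 (0.039 to 0.071). Srsf5 with Srsf9 had -0.017 to 0.020. Of 4679 other genes, those most like the SR sum across cells were Ptma (prothymosin alpha, a chromatin-associated acidic protein) with a median r of 0.164, Ncl (nucleolin, of the nucleolus) with 0.154, H2afz (the histone variant H2A.Z) with 0.147, Hspd1 (a mitochondrial chaperone) with 0.146 and Dnmt3b (a DNA methyltransferase) with 0.135. The median over all genes was 0.009. Ptma had an r of only 0.047 in library 1, where the values of the 5 genes ran from 0.042 to 0.126. The r of the SR sum with the summed S genes was 0.087, 0.145, 0.190 and 0.153, and with the mitochondrial share -0.058, -0.006, -0.050 and -0.009.

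Other genes of the splicing pathway were taken from lists. Of 16 SR-related genes with at least 200 counts in every library (17 listed), 6 differed at least 1.5-fold between libraries, compared with 41.0% of all genes, with Srrm2 widest and Pnisr narrowest at 1.1-fold. Among 9 kinases and import factors of SR proteins it was 2, with Prpf4b, a kinase of the spliceosome, at 71.2, 131, 89.6 and 159 CPM (2.24-fold), and Srpk1, which phosphorylates SR proteins in the cytoplasm, at 151, 250.5, 176 and 240.2 CPM. The Clk family member Clk3 was narrowest at 1.09-fold. Among 13 hnRNP genes, whose products often oppose SR proteins, 2 passed, with Hnrnpab widest at 1.71-fold and Hnrnpf narrowest at 1.1-fold. Of 10 genes of nonsense-mediated decay 2 passed, with Upf2 widest at 25.9, 40.4, 23.0 and 40.5 CPM and Upf3a narrowest at 1.17-fold. Median folds of the 4 lists were 1.32, 1.2, 1.31 and 1.34, all below the 1.42 of all genes. Srsf12, the remaining SR gene on these lists, was nearly absent, at 0.0839 to 0.365 CPM. In S-high cells 13 of the 16 SR-related genes and 12 of the 13 hnRNP genes were higher by any amount in every library, compared with 26.1% of all genes. Among the 9 kinases and import factors 3 were higher and 3 lower, and among the 10 decay genes 2 were higher and 2 lower, compared with 11.7% of all genes lower. In Srrm2-high cells, where 26.8% of all genes were higher, 13 of 15 SR-related genes (Srrm2 left out), 10 of 13 hnRNP genes, 5 of 9 kinases and import factors and 5 of 10 decay genes were higher by any amount in every library. In formative-high cells these counts were 10 of 16, 10 of 13, 3 of 9 and 3 of 10, compared with 36.6% of all genes. There 1 SR-related gene was lower in all, compared with 16.4% of genes. In naive-high cells 2 SR-related genes were higher and 3 lower, and 1 hnRNP gene was higher and 6 lower. Of all genes, 19.3% were higher and 31.8% lower. The shares of all genes were not matched for level.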

How the data were processed

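Cells of 2 WT and 2 Srrm2 hKO samples were profiled with a 3′ droplet kit. The authors mapped the reads to mm10 with Cell Ranger 6.1.2 and joined the 4 libraries with depth equalisation. The deposited matrix of the joined libraries holds UMI counts of 32285 genes in 41142 barcodes, and depths given here are those of this matrix. Cells were kept with UMIs and detected genes at or above the library mean minus 1 SD and a mitochondrial share of at most 10% (31989 cells). This is more cells than the study states, and the source of the difference was not found. Doublets were not called. Cells with over 2 times the median UMIs were left out in an alternative. Counts were summed per library or class of cells with numpy 2.4.6 and scipy 1.17.1. Ratios carry exact conditional binomial intervals, and shares of cells exact Clopper-Pearson ones. A count of 0 would have a floor of 3 counts (0.0150 to 0.0180 CPM), and every member was above it in every library. Cells were thinned to 5000 UMIs by drawing without replacement. Class contrasts required 200 counts over both classes in every library, and the sorting genes were left out. Cells are not replicates, so no p-value was computed. The functions were tested on simulated data. The members and gene lists were chosen with earlier results of these data known. All members are named, and of the lists the widest and narrowest genes. Srpk1, Srsf12, Malat1 and Dnmt3b (as a comparator) were named after their values were seen.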

Additional observations from a re-analysis of the deposited data

How the results depend on the processing

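No paired analysis was possible because no library number is tied to a labelled sample. For the same reason the comparison of Srrm2 hKO with WT was not made, nor was it repeated with DESeq2, with the replicate block, without a filter or with a replicate left out. The fold of the SR sum between libraries (1.24) was 1.15 with size factors, 1.17 without mitochondrial and ribosomal protein genes in the totals, 1.24 without cells over 2 times the median UMIs and, in an alternative added after seeing the data, 1.23 in cells with 3% to 5% mitochondrial UMIs. With 1 library left out it was 1.18 to 1.24. The count of members at least 1.5-fold apart was 3 with each other scaling, with all barcodes, without cells of high UMIs and in the mitochondrial window, 2 to 3 in cells grouped by formative UMIs, and 1 to 3 with 1 library left out. Folds of single members left their counting interval in 37 of 100 alternatives. With 1 library left out, the formative count at 1.2-fold was 0 to 1. No share of all genes is given for this count or for those of members 1.5-fold apart above. At 1.1-fold, added after seeing the data, 2 members were higher in S-high and 3 in formative-high cells. At the same limit 1 member, Srsf9, was lower in naive-high cells. The other counts of members higher or lower in a class were 0 in the alternatives run. The median r of the members with Srrm2 (0.015) was 0.032 at 10000 UMIs per cell and 0.060 with all UMIs on a log scale, where the median gene rose too, from 0.005 to 0.021. The cause was not tested. Depth limits Srsf4 most, with 7130 to 13208 UMIs per library. Each library is 1 culture, so no value here has replicate error.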
